A study of Homo sapiens with 15 samples.

Results

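The clustered protocadherin genes were followed through RNA-seq counts of MRC-5 cells, a fibroblast line derived from the lung of a human fetus. Members were the protein-coding genes whose symbol starts with PCDHA, PCDHB or PCDHG followed by a number or by A, B or C. They numbered 53 of 57272 genes in the table, of which 15 were alpha, 16 beta and 22 gamma genes. All lie on the plus strand of chromosome 5 in GRCh38, the alpha cluster at chr5:140786136-141012347, the beta cluster at chr5:141051374-141249365 and the gamma cluster at chr5:141330514-141512977. There were 5 conditions with 3 libraries each. Young cells were collected at PD 30 (population doublings) and carried either an empty GFP virus (pWPIR-GFP) or the same virus with TRF2, the shelterin protein that binds telomeric repeats. Another young group received siLMNB1, a siRNA against lamin B1 of the nuclear envelope. Senescent cells had been passaged up to a pre-senescent stage, infected with the empty or the TRF2 virus and kept until their growth had reached a plateau, so that the TRF2 cells had carried the protein from before senescence. The study reports that these TRF2 cells senesced after more population doublings than the empty-vector cells, and that young cells expressed TRF2 for days only. In senescent cells, TRF2 and the added doublings cannot be told apart, and the interaction also holds the longer exposure. All cells were grown in 5% oxygen, and the control siRNA was given in every condition except siLMNB1. The count columns of the siLMNB1 cells name the empty virus. The study calls the libraries of a condition biological replicates, but the labels name no separate cultures, so the p-values measure the spread between these libraries.

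Protocadherins of these clusters are cell surface proteins of the cadherin superfamily that are best known from neurons, where each cell uses its own small set of them and homophilic binding between the sets allows branches of one neuron to recognise each other. Each alpha or gamma gene has its own promoter and its own long first exon, which encodes the extracellular and membrane part, and this exon is spliced to constant 3′ exons that encode a common cytoplasmic part. Beta genes consist of a single coding exon and have no constant part. Choice among the promoters is known to depend on CTCF and cohesin, which bring a promoter to a distant enhancer, and on DNA methylation, which keeps unused promoters silent. The C-type genes at the 3′ end of the alpha and gamma clusters (PCDHAC1, PCDHAC2, PCDHGC3, PCDHGC4, PCDHGC5) follow other rules of use and are often active in cells that use few of the other members. Since the STAR counter keeps only read pairs that fall on 1 gene, reads on the constant exons were not counted for any member, and counts of alpha and gamma genes reflect their own exons. Exon bases shared with any other gene of the same strand, the constant exons among them, numbered 2869 to 5309 per alpha gene and 2177 to 4443 per gamma gene.

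Total counts per library lay between 26725885 and 43116046, and counts were scaled to a common effective size of 32204708 reads, called normalised read counts from here on. The labels held for the genes targeted. TERF2, which encodes TRF2, averaged 766 ± 58.3 (SD, n = 3) in young cells and 6269 ± 3147 in young TRF2 cells, and 804 ± 47.4 and 7571 ± 1403 in the senescent pair. LMNB1 averaged 1922 ± 38.5 in young cells and 86.0 ± 9.06 with siLMNB1, and it was also low in senescent cells, at 165 ± 16.9. The 10 fibroblast marker genes summed to between 649590.5 and 1086647.2 in all 15 libraries, the 5 leukocyte genes to at most 7.65, and 2 of 10 neuron genes, STMN2 and ELAVL4, had 3 counts or fewer in every library. The summed neuron genes were nevertheless higher with siLMNB1 (452 to 551) than in young cells (263 to 298) and lay between 210 and 398 in senescent cells and between 414 and 482 in senescent TRF2 cells. The largest of them, MAP2, averaged 127 in young, 316 with siLMNB1 and 268.5 in senescent TRF2 cells. SYN1 averaged 51.7, 63.2 and 27.6 in the same order, and SNAP25 69.0, 61.2 and 96.5. Endothelial genes (5) summed to between 983 and 1087 in young, 1048 and 1209 in young TRF2, 1373 and 1679 in siLMNB1, 770.0 and 1969.8 in senescent and 1924 and 2282.5 in senescent TRF2 cells, and none of the 5 was at 3 counts or fewer in every library. Most of this sum was TEK, which averaged 980 in young, 1490 with siLMNB1 and 2030 in senescent TRF2 cells. The others did not move together: in the same order, VWF averaged 25.5, 32.2 and 51.9, KDR 33.9, 27.5 and 8.38, PECAM1 6.52, 0 and 0.612, and CDH5 0, 0 and 1.37. The higher endothelial sum with siLMNB1 and in senescent TRF2 cells was thus mainly that of TEK, and the part of these genes in the results below was not tested. Genes of dividing cells (8) summed to between 18772 and 20041 in young cells, 9265 and 9366 with siLMNB1, 2599 and 2789 in senescent cells and 1379 and 1593 in senescent TRF2 cells. In the empty-vector senescent group, replicate 3 stood apart. Its chi-square distance per gene to the other 2 was 101 and 131, against 38.2 between these 2 and 3.62 to 26.5 in the other groups, and its log2 values rose by 0.823 per 10 points of GC content relative to young cells, against 0.46 to 0.506 in the other 5 senescent libraries and -0.00633 to 0.134 in young ones. By their labels, the senescent libraries are a reanalysis of data deposited before, so deposit and senescence cannot be told apart. There were 26 genes with at least 100 counts in all 9 young and at most 2 in all 6 senescent libraries and 5 genes with the reverse, none of them a protocadherin of these clusters. In these bulk samples, a gene used by more cells and a gene used more strongly per cell cannot be told apart.

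The promoters are shown first because most of these protocadherin promoters hold a version of a short word, and the commonest version differed between the 3 clusters. Each word was picked from the same promoters in which it is counted. How often the word of a cluster occurs in the promoters of the other clusters was not counted. RefSeq (GRCh38.p14) gave a promoter for 47 of the 53 members, and the 250 bases before the start were searched for the word of 8 bases that most members of a cluster share. In the alpha cluster it was ATGTCGCT, held by 9 of 13 promoters and, on either strand, by 0.182% of all 35116 promoters. In the lines below it stands in capitals in the promoters of PCDHA7 (chr5:140834158-140834217), the alpha gene with the highest level, and of PCDHA10 (chr5:140855827-140855886), which was counted almost only in senescent cells.
PCDHA7: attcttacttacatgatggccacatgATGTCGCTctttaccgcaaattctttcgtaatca
PCDHA10: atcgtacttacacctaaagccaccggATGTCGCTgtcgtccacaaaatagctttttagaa

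In the beta cluster the word was GTGGCGCT, held by 12 of 14 promoters and by 0.94% of all promoters, and it lay 15 to 83 bases before the start. It is marked in 5 beta genes with large changes, PCDHB16 (chr5:141182296-141182355), PCDHB9 (chr5:141187060-141187119), PCDHB13 (chr5:141213851-141213910), PCDHB14 (chr5:141223249-141223308) and PCDHB15 (chr5:141245300-141245359). PCDHB1, which had no read in any library, and PCDHB8, which had many in senescent cells, lacked the word in the window searched.
PCDHB16: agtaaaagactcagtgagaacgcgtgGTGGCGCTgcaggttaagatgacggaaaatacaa
PCDHB9: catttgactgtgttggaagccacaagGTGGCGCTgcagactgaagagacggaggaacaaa
PCDHB13: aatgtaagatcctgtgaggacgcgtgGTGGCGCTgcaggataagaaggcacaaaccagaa
PCDHB14: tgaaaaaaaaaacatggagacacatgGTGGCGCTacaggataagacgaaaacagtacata
PCDHB15: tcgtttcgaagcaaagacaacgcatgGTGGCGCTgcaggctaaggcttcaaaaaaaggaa

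In the gamma cluster the word was GCCGCTGT, held by 11 of 20 promoters and by 1.23% of all promoters. PCDHGB5 (chr5:141397851-141397910), PCDHGA9 (chr5:141402702-141402761) and PCDHGC3 (chr5:141475868-141475927) held it. PCDHGA4 (chr5:141354950-141355005) did not, and there the capitals mark CGCT, the 4 bases common to the words of the 3 clusters.
PCDHGB5: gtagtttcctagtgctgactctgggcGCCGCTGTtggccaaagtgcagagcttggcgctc
PCDHGA9: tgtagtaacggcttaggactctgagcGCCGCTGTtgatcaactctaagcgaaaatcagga
PCDHGC3: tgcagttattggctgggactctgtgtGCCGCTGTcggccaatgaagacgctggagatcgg
PCDHGA4: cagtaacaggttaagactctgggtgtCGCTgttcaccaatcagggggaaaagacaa

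These 4 bases were found in 12 of 13 alpha, 13 of 14 beta and 20 of 20 gamma promoters, and in 48.1% of all promoters on the same strand. The words hold a CG, a C followed by a G on the same strand, where DNA methylation occurs. CG pairs per 250 bases had a median of 5 in alpha, 6 in beta and 5.5 in gamma promoters and of 11 over all promoters, whereas the 4 C-type promoters held 13 to 18.

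Young cells used the gamma cluster far more than the others. The summed normalised read count was 8950 ± 139 (SD, n = 3) for the 22 gamma genes, 232 ± 7.79 for the 16 beta genes and 23.3 ± 3.81 for the 15 alpha genes. PCDHGC3, a C-type gene, had the highest level per length, at 26.4 ± 0.544 CPM per kb of exon that no other gene shares. PCDHGB5 followed at 10.6 ± 0.289, PCDHGB7 at 8.1 ± 0.322 and PCDHGA12 at 7.41 ± 0.686, and of these neighbours PCDHGB7 and PCDHGA12 did not differ beyond their spread. The other C-type genes were low, with 0.476 CPM per kb for PCDHGC5 and 0.0833 for PCDHGC4, and no read of PCDHAC1 or PCDHAC2. Beta genes were all low in young cells, and the 3 highest, PCDHB5 (0.309 ± 0.105), PCDHB13 (0.276 ± 0.1) and PCDHB14 (0.274 ± 0.0869 CPM per kb), did not differ beyond their spread. In the alpha cluster PCDHA7 stood at 0.131 ± 0.0443. PCDHA6 and PCDHA3, which with PCDHA7 and PCDHA10 had the highest mean levels of the alpha genes over all libraries, did not pass the filter on low counts. PCDHA6 had at most 7.0 normalised reads in the young libraries of either virus, 2.39, 3.58 and 3.13 in senescent and 5.13, 6.15 and 11.9 in senescent TRF2 cells. PCDHA3 had 3.37, 0 and 4.79 in young, 7.87, 7.65 and 3.03 in young TRF2 and 15.8, 6.97 and 6.37 in siLMNB1 cells, and at most 1.04 in any senescent library. Members with more than 3 counts numbered 1 to 8 of 15 alpha, 10 to 15 of 16 beta and 21 or 22 of 22 gamma genes per library.

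**Figure D1:**
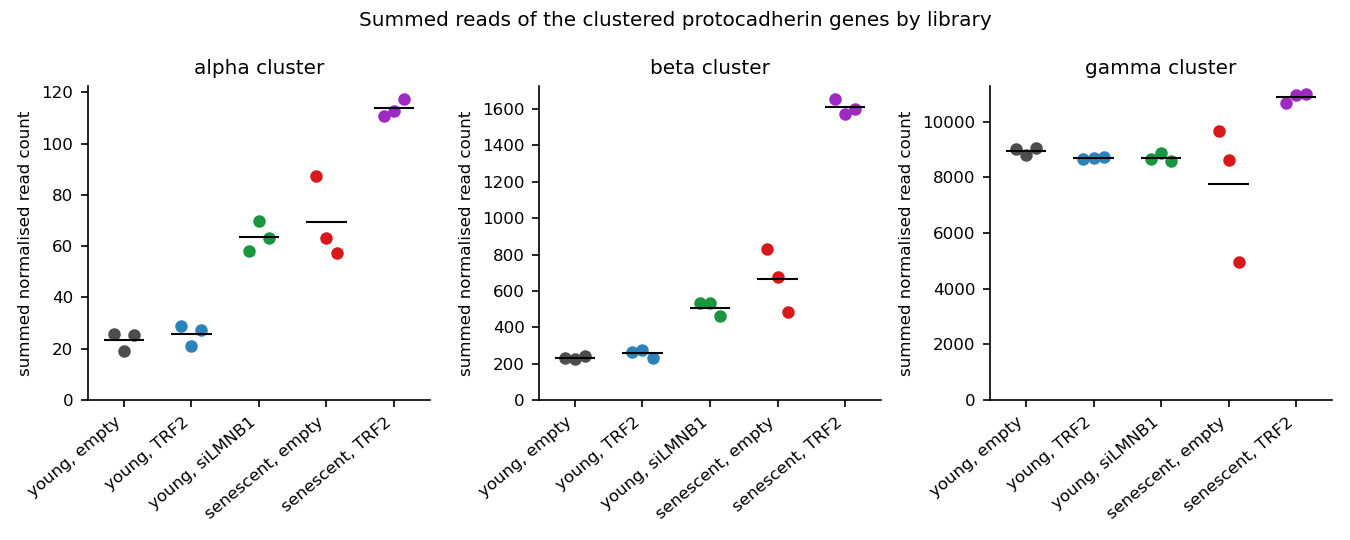
Summed normalised read count of the alpha, beta and gamma clusters (y axes, each from 0) in each library of the 5 conditions (x axis), with points for libraries and bars for the mean of 3. Beta sums have a mean of 232 in young and of 1609 in senescent TRF2 cells, and 1 senescent library with the empty vector stands low in the gamma panel, at 4967.

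A filter on low counts left 39 of the 53 members for testing, among them 3 alpha (PCDHA4, PCDHA7, PCDHA10), 14 beta (not PCDHB1 and PCDHB4) and all 22 gamma genes. PCDHA10 and PCDHB8 passed the filter only through senescent libraries and PCDHB11 only through the 3 senescent TRF2 libraries, so a call could only be upward for them, for PCDHB11 also between TRF2 and the empty vector in senescent cells. PCDHB3 was over it in 5 young and 0 senescent libraries, and in senescence it could only be called downward. PCDHB12 was over the filter in 2 young and 6 senescent libraries and PCDHA4 in 2 and 2. Both had too few young libraries to pass without senescent ones, so their upward calls in senescence carry the same limit. PCDHB6 was over the filter in 3 young libraries, all of them siLMNB1, and in 4 senescent ones. Against young cells with the control siRNA it too could only be called upward. Over the filter in all 15 libraries were 0 alpha, 7 beta (PCDHB2, PCDHB5, PCDHB10, PCDHB13, PCDHB14, PCDHB15, PCDHB16) and 21 gamma genes (not PCDHGC4). Read sharing limits some of the values: 150-base windows of the gene also found in another member made up 17.9% in PCDHB10, 16.2% in PCDHB8, 16.0% in PCDHA7 and 13.4% in PCDHGB5. Exons of genes outside the clusters overlapped PCDHB2 over 1797 bases, PCDHB16 over 1001 and PCDHA10 over 2745, and the strand setting of the counting is not given in the sources used here, so these genes are less certain.

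Senescence with the empty vector was accompanied by more reads of several beta genes. A gene was called when its adjusted p was below 0.05 (edgeR's quasi-likelihood test, Benjamini-Hochberg over 15799 genes) and its log2 fold change was 1 or more in size. Of the 14 beta genes tested, 6 were upregulated and 1 was downregulated, against 16.7% of all genes tested called up and 11.8% called down. Of the 7 beta genes over the filter in all libraries, 4 were upregulated and 0 downregulated, with a median log2 fold change of 1.57, against 0.02 over all genes. Of the 22 gamma genes, 1 was upregulated and 5 were downregulated. These are 27.3% of the gamma genes, close to the 28.4% of all genes that were called in either direction, so the count is not a result about the cluster. Of the 3 alpha genes 2 were upregulated.

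PCDHB13 had 38.2, 33.1 and 63.5 normalised reads in young cells and 262, 241 and 101 in senescent cells. The groups did not overlap, although replicate 3, the senescent library that stood apart, was well below the other 2, and the log2 fold change was 2.17 (SE 0.307, edgeR adjusted p = 1.3e-05). PCDHB16 rose from 10.1, 12.3 and 15.6 to 53.9, 60.8 and 56.3, a log2 fold change of 2.17 (SE 0.245, edgeR adjusted p = 1.1e-06), and here replicate 3 lay within the range of the others. PCDHB9 had 13.5, 10.4 and 5.99 in young and 75.4, 68.0 and 59.5 in senescent cells, again without overlap (log2 fold change 2.74, SE 0.36, edgeR adjusted p = 6.2e-06). PCDHB14 (1.57, SE 0.217, edgeR adjusted p = 1e-05) and PCDHB10 (1.62, SE 0.325, edgeR adjusted p = 0.000403) rose less. PCDHB5, one of the 3 highest beta genes in young cells, was not called: it had 35.9, 44.4 and 21.6 reads in young and 58.7, 53.7 and 30.3 in senescent cells, with overlap of the groups and a log2 fold change of 0.46 (SE 0.297, edgeR adjusted p = 0.187).

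A few members were counted in nearly 1 state only. PCDHB8 had 2.25, 0 and 3.6 normalised reads in young and 75.4, 37.0 and 29.2 in senescent cells. With 122 against 5 reads in all, the ratio of the normalised values was 25.8 (95% interval from the counts 10.8 to 80.9). PCDHA10 had no read in the 3 young libraries and 48 in the 3 senescent ones, which is at least 5.65-fold higher when 3 counts per library are taken as the floor. Intervals and floors cover counting error only. PCDHB3, whose direction the filter had fixed, was the only downregulated beta gene, with 2.25, 18.9 and 13.2 in young and 3.59, 0 and 1.04 in senescent cells. Its groups overlapped, its log2 fold change was -2.83 (SE 0.89, edgeR adjusted p = 0.0109), and without replicate 2 of the young cells it was -2.23 with an adjusted p of 0.0679. Among alpha genes, PCDHA7 rose from 7.86, 16.1 and 13.2 to 41.9, 19.1 and 25.0 (log2 fold change 1.19, SE 0.404, edgeR adjusted p = 0.017), the second upregulated alpha gene beside PCDHA10. The call of PCDHA7 was lost without young replicate 1 or without senescent replicate 1. The other alpha genes were low, and the median alpha gene had 22 reads over the 15 libraries together. Without the filter on low counts, 4 of 15 alpha genes were called, all of them up, against 9.43% of all genes called up and 6.18% down. PCDHA2, which did not pass the filter, had 0 reads in the young and 14 in the senescent libraries, at least 1.68-fold higher by the same floor.

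**Figure D2:**
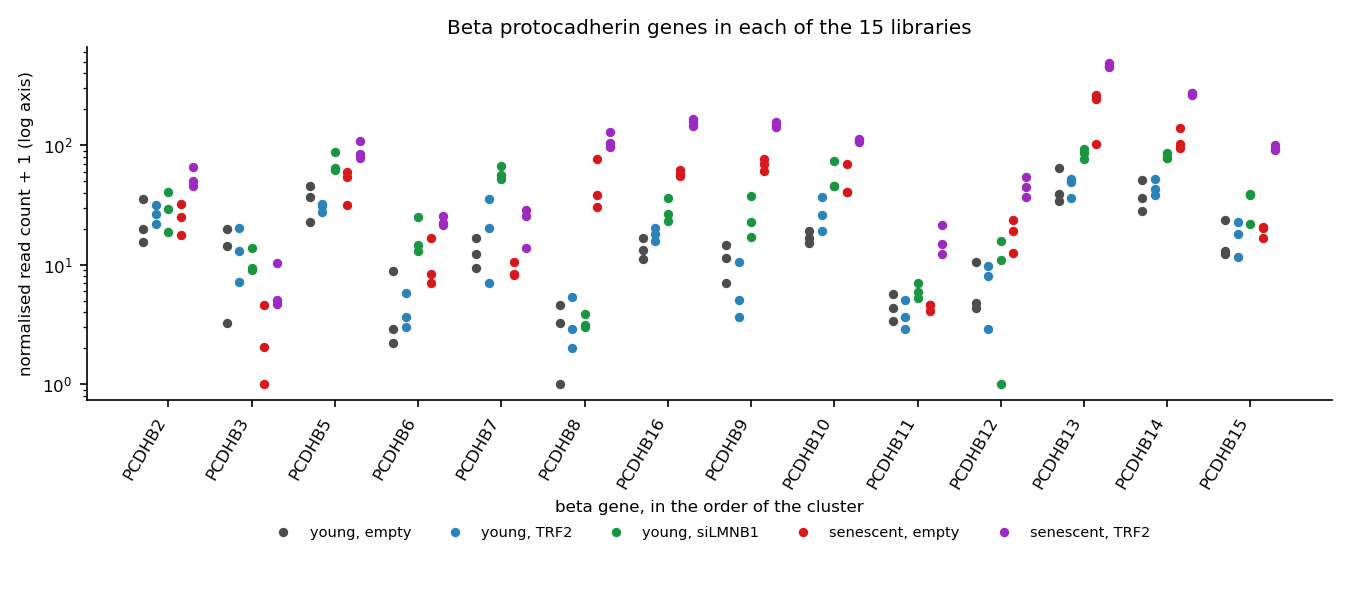
Normalised read count + 1 (y axis, log scale) of the 14 beta genes tested (x axis, in the order of the cluster) in each of the 15 libraries, coloured by condition. PCDHB13, PCDHB14 and PCDHB16 stand highest in the senescent TRF2 libraries, with PCDHB13 at 448 to 486, and PCDHB15 is apart from the other conditions in these libraries only (90.2 to 99.5).

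In the gamma cluster the upregulated gene was PCDHGA4, which had 250.4, 264 and 231 normalised reads in young and 1140.0, 1068 and 621 in senescent cells. Every senescent library was above every young one, and the log2 fold change was 1.92 (SE 0.173, edgeR adjusted p = 8.9e-08). PCDHGA12 moved the other way, from 639, 593 and 712 to 218, 135 and 114 (-2.06, SE 0.172, edgeR adjusted p = 3.7e-08). PCDHGC3 fell from 2820.4, 2706 and 2762 to 1358, 1416 and 752, which is a log2 fold change of -1.23 (SE 0.159, edgeR adjusted p = 5e-06), without overlap and with the lowest value in replicate 3. PCDHGA9 (-1.84, SE 0.264, edgeR adjusted p = 1.6e-05), PCDHGA6 (-1.29, SE 0.143, edgeR adjusted p = 9.4e-07) and PCDHGB6 (-1.07, SE 0.182, edgeR adjusted p = 8.3e-05) were the other downregulated genes. PCDHGB5 (0.62, SE 0.162, edgeR adjusted p = 0.00327) and PCDHGB7 (-0.44, SE 0.158, edgeR adjusted p = 0.0221) stayed under the fold threshold, and the C-type genes PCDHGC4 (14.6, 1.89 and 5.99 against 14.4, 19.1 and 7.3 reads) and PCDHGC5 (37.1, 42.6 and 51.5 against 29.9, 40.6 and 27.1) had overlapping groups, with log2 fold changes of 0.87 (SE 0.68) and -0.43 (SE 0.277) and edgeR adjusted p values of 0.275 and 0.187.

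Without replicate 3 of the senescent cells, which had a gamma sum of 4967 against 9676 and 8637 in the other 2 and a beta sum of 485 against 831 and 679, 7 beta genes were upregulated and 1 downregulated, and 2 gamma genes were upregulated and 4 downregulated. Without replicate 3, PCDHGB6 fell below the fold threshold at -0.96. Of all genes, 13.6% were called up and 10.9% down without this library. Once GC content and gene length were offset, the counts were 7 and 1 for the beta and 1 and 5 for the gamma genes. With the offsets, 10.7% of all genes were called up and 10.2% down. The summed genes of dividing cells were lower in every senescent library than in any young one, and 8 of these 8 genes were downregulated. Their part in the changes of the protocadherin genes was not tested.

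In TRF2 cells the difference between senescent and young reached most beta genes tested. Of the 14 beta genes, 12 were upregulated and 0 downregulated by edgeR with the same thresholds, against 11.9% of all genes called up and 12.1% called down. DESeq2 called 0 beta genes down as well, and 0 had an unadjusted p below 0.05 in that direction. PCDHB3 was the only one with a negative log2 fold change, of -1.12 (SE 0.68, edgeR adjusted p = 0.17). Of the 7 beta genes over the filter in all 15 libraries, 7 were upregulated, with a median log2 fold change of 2.49, against -0.02 over all genes. The 3 alpha genes tested were upregulated, but PCDHA4 and PCDHA10 had passed the filter only with senescent libraries, so little is read from this count. Of the gamma genes, 5 were upregulated and 2 downregulated, or 31.8% against 24% of all genes called in either direction.

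PCDHB13 had 50.7, 47.8 and 35.3 normalised reads in young TRF2 cells and 448, 456 and 486 in senescent TRF2 cells. Its libraries were close together in both groups, with a log2 fold change of 3.37 (SE 0.297, edgeR adjusted p = 7.5e-08). PCDHB9 rose from 2.62, 9.56 and 4.03 to 156, 146 and 142 (4.75, SE 0.373, edgeR adjusted p = 1.8e-08), and PCDHB8 from 4.37, 1.91 and 1.01 to 127, 95.4 and 104 (5.37, SE 0.51, edgeR adjusted p = 1.8e-07). PCDHB16 went from 14.9, 17.2 and 19.2 to 165, 157 and 143 (3.18, SE 0.219, edgeR adjusted p = 3.6e-09), PCDHB14 from 37.6, 51.6 and 42.4 to 271, 263 and 271 (2.61, SE 0.202, edgeR adjusted p = 1.6e-08) and PCDHB10 from 35.9, 24.9 and 18.2 to 106, 111 and 109 (2.03, SE 0.283, edgeR adjusted p = 1.3e-05). None of these 6 genes had overlapping groups. The remaining upregulated beta genes ran from PCDHB12 at 2.87, which had passed the filter only with senescent libraries, to PCDHB2 at 1.05. PCDHB5 was among these remaining genes with 29.7, 26.8 and 31.3 against 84.1, 77.9 and 108 reads (1.62, SE 0.283, edgeR adjusted p = 0.000125). PCDHB7, with 19.2, 34.4 and 6.05 against 27.7, 24.6 and 12.8, showed overlapping groups and a log2 fold change of 0.11 (SE 0.449, edgeR adjusted p = 0.85).

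PCDHA10 had 2 reads in the young and 135 in the senescent TRF2 libraries, a ratio of 70.6 (95% interval from the counts 19.2 to 589). PCDHA4 had 5 against 30 reads, a ratio of 6.28 (2.41 to 20.7). Alpha genes that did not pass the filter went both ways. PCDHA11 had 1 against 14 reads (ratio 14.7, 2.23 to 619.5) and PCDHA2 2 against 12 (6.28, 1.4 to 57.8), both higher in senescent TRF2 cells, whereas PCDHA3 had 20 reads in young and 1 in senescent TRF2 cells, a ratio of 19.1 (3.06 to 792.1) in favour of young cells. Without the filter 4 of 15 alpha genes were called up and 1 down, against 6.6% of all genes called up and 6.4% down. PCDHA7 rose from 9.62, 9.56 and 18.2 to 26.7, 34.9 and 31.2 normalised reads (log2 fold change 1.32, SE 0.392, edgeR adjusted p = 0.0087). The C-type genes of the alpha cluster stayed close to 0, with at most 2.05 normalised reads of PCDHAC1 and 1.84 of PCDHAC2 in these 6 libraries.

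PCDHGB1 and PCDHGA4 had the largest log2 fold change of the gamma genes that rose in TRF2 cells, 1.87 for both. PCDHGB1 went from 74.4, 89.8 and 77.7 to 297, 279.9 and 310.2 (log2 fold change 1.87, SE 0.249, edgeR adjusted p = 8e-06). PCDHGA4 rose from 273, 265 and 311 to 1006, 1095 and 1008.5 (1.87, SE 0.17, edgeR adjusted p = 1.1e-07), and PCDHGA7 from 332, 313.5 and 377 to 922, 943 and 957 (1.47, SE 0.191, edgeR adjusted p = 6.4e-06). PCDHGB2 (1.30) and PCDHGA2 (1.14) were also upregulated. PCDHGA12 fell from 613, 653 and 721 to 186, 178 and 201 (-1.81, SE 0.167, edgeR adjusted p = 1.3e-07), and PCDHGA9 fell by 1.22 on the log2 scale (SE 0.243, edgeR adjusted p = 0.000429). Just on the other side of the fold threshold were PCDHGB5 at 0.99 and PCDHGC3 at -0.98, with adjusted p values of 6.4e-05 and 5.6e-05. The median of the 22 gamma genes was 0.43 and became 0.13 once GC content and gene length were offset. With the offsets 5 were called up and 3 down, against 8.49% of all genes called up and 11.7% down. The offsets took GC content and length from all exons of a gene, including constant exons whose reads were not counted. How well they suit alpha and gamma genes is therefore uncertain.

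**Figure D3:**
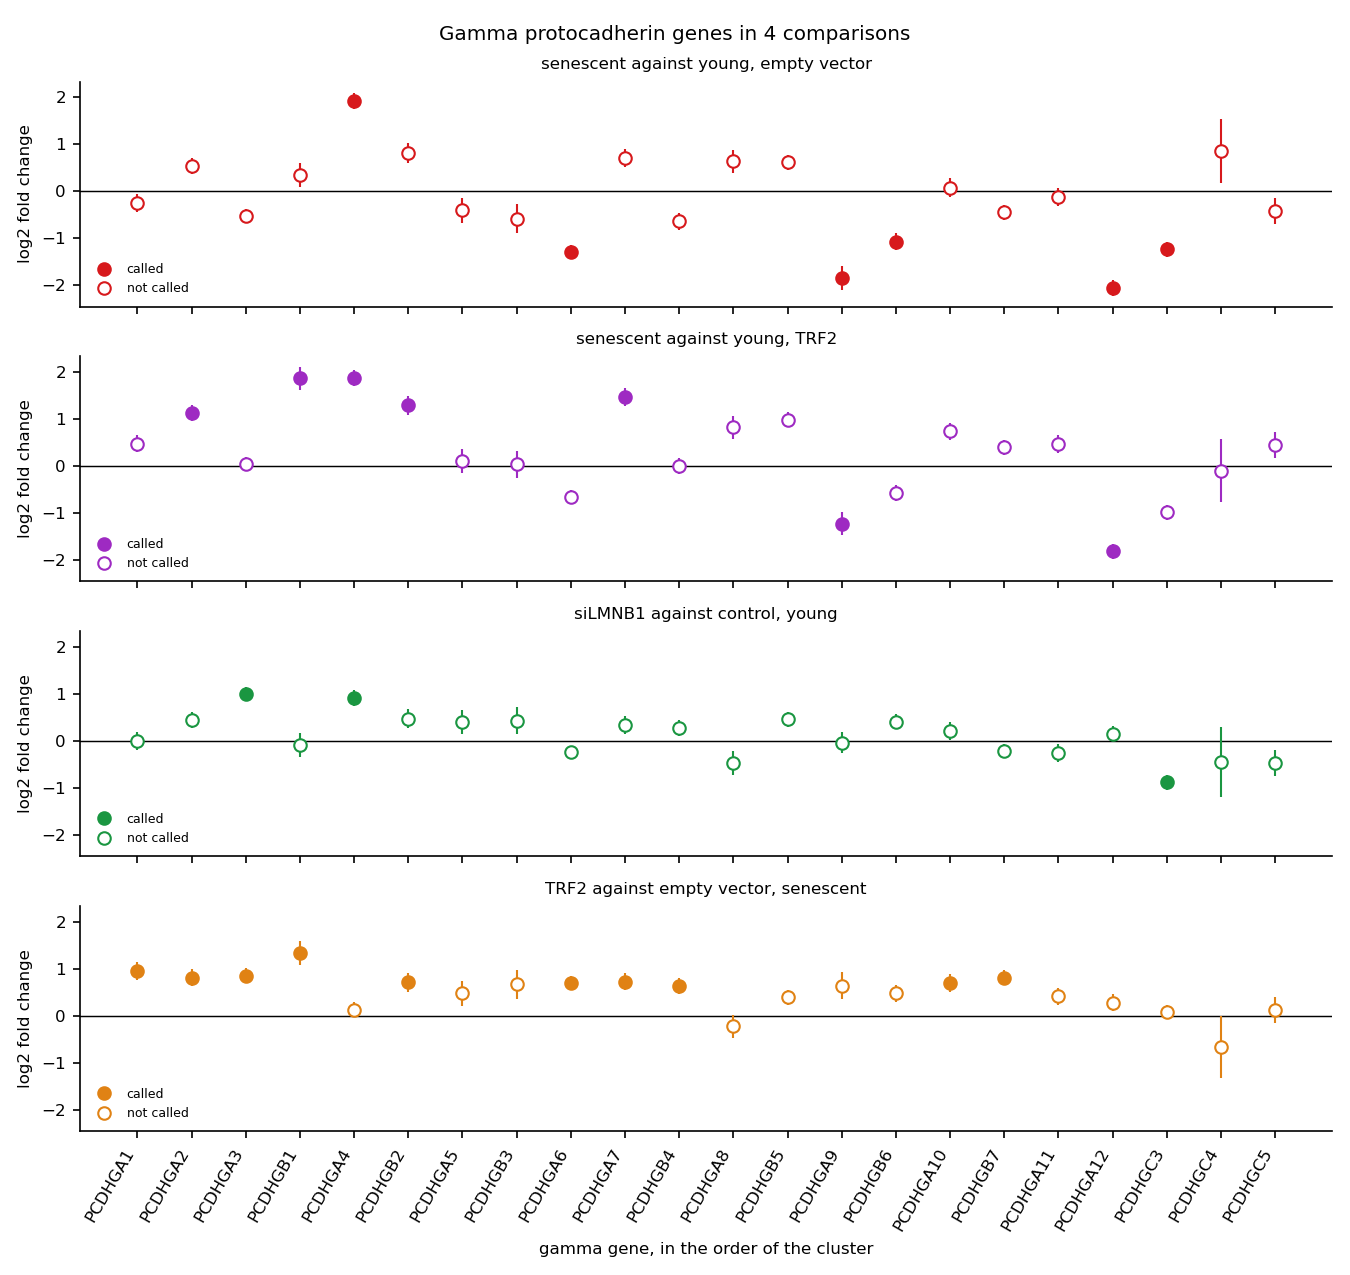
Log2 fold change (y axis) of the 22 gamma genes (x axis, in the order of the cluster) in 4 comparisons, with filled points for called genes, open points for the others and bars for 1 SE on either side. PCDHGA4 stands high and PCDHGA12 low in both senescence panels, and PCDHGC3 is the only filled point below 0 in the siLMNB1 panel, at -0.88.

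Lowering lamin B1 in young cells was accompanied by more reads of beta genes at smaller folds. With siLMNB1, a gene was called when its log2 fold change was 0.58 or more in size and its adjusted p below 0.05. Of the 14 beta genes, 9 were upregulated and 0 downregulated by edgeR, and DESeq2 gave the same counts, against 10.2% of all genes called up and 8.04% called down. The only beta gene with a negative value was PCDHB3, at -0.23 (adjusted p 0.812), and none had an unadjusted p below 0.05 in that direction. Of the 7 beta genes over the filter in all libraries, 6 were upregulated, with a median log2 fold change of 1.09, against 0.04 over all genes. Of the gamma genes, 2 were upregulated and 1 downregulated, or 13.6% against 18.2% of all genes called in either direction.

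PCDHB7 led the beta genes here, with 15.7, 11.3 and 8.39 normalised reads in young cells and 54.9, 65.7 and 50.9 with siLMNB1. The groups did not overlap, and the log2 fold change was 2.26 (SE 0.454, edgeR adjusted p = 0.00126). PCDHB6 rose from 7.86, 1.89 and 1.2 to 13.7, 23.9 and 12.0 (2.14, SE 0.584, edgeR adjusted p = 0.0102), the only direction that its passing the filter allowed. PCDHB10 rose from 15.7, 14.2 and 18.0 to 72.8, 44.8 and 44.6 (1.75, SE 0.318, edgeR adjusted p = 0.000551). PCDHB14 had 26.9, 35 and 50.3 against 85.5, 76.7 and 77.1 (1.10, SE 0.218, edgeR adjusted p = 0.00116), PCDHB5 35.9, 44.4 and 21.6 against 87.6, 63.7 and 61.6 (1.04, SE 0.284, edgeR adjusted p = 0.0104) and PCDHB13 38.2, 33.1 and 63.5 against 85.5, 92.6 and 75.0 (0.92, SE 0.318, edgeR adjusted p = 0.0365). Each of these genes was higher in every siLMNB1 library than in any control library. PCDHB8, at 2.11, 1.99 and 2.83 reads, remained as low as in the control cells (log2 fold change 0.36, SE 0.902, edgeR adjusted p = 0.791). Without replicate 2 of the control cells, 5 beta genes were upregulated. The call of PCDHB13 was lost without control replicate 1 or 2 or without any of the siLMNB1 libraries, at edgeR adjusted p values of 0.0538 to 0.151. Leaving out some single libraries also lost the calls of PCDHB5, PCDHB6, PCDHB9 and PCDHB15.

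Of the gamma genes, PCDHGA3 rose from 115, 111 and 108 to 236, 216 and 213 (log2 fold change 1.00, SE 0.146, edgeR adjusted p = 8.1e-05), and PCDHGA4 from 250.4, 264 and 231 to 500.3, 448 and 456 (0.91, SE 0.172, edgeR adjusted p = 0.000772). PCDHGC3 fell from 2820.4, 2706 and 2762 to 1428, 1575.5 and 1503, without overlap (-0.88, SE 0.157, edgeR adjusted p = 0.000485). PCDHGB5 was higher in each library but under the fold threshold (0.47, edgeR adjusted p = 0.0353), and PCDHGA12, which had fallen in senescence, had a log2 fold change of 0.16 (SE 0.156, edgeR adjusted p = 0.459). In the alpha cluster PCDHA7 reached 19.0, 34.9 and 25.5 reads against 7.86, 16.1 and 13.2 (1.08, SE 0.4, edgeR adjusted p = 0.0495), a call that several alternatives lost. PCDHA10 was called on a handful of reads (1.06, 0.996 and 3.54 normalised reads against 0 in the 3 control libraries), too few for a fold. PCDHAC1 had 2.11, 4.98 and 2.83 normalised reads with siLMNB1 and 0 in the control cells. The genes of dividing cells were lower here as well, with 7 of 8 downregulated, the summed neuron genes were higher, with 1 of 5 tested upregulated, and so were the summed endothelial genes (1373 to 1679 against 983 to 1087). The part of any of them in the changes of the protocadherin genes was not tested.

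The siLMNB1 comparison and the comparison of senescent with young TRF2 cells use no library in common. Their upregulated beta genes shared 8 members, which is 88.9% of the 9 with siLMNB1 and 66.7% of the 12 in senescent TRF2 cells. Since 12 of the 14 beta genes tested were on the second list, nothing is read from this overlap, and over all genes tested the shared part was 25.3% of the first list and 21.6% of the second. PCDHB7 was called with siLMNB1 and not in senescent TRF2 cells, and PCDHB2, PCDHB8, PCDHB11 and PCDHB12 the other way round. The fold thresholds of the comparisons differed (0.58 and 1), and the differences between the comparisons were not tested. Of gamma genes the lists shared PCDHGA4, which is 50% of 2 and 20% of 5.

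In young cells, no change with TRF2 was detected among the protocadherin genes. No member was called by edgeR in either direction (0 of 39, with 2 at an unadjusted p below 0.05) or by DESeq2 (0), against 0.158% of all genes called. Beta sums were 257 ± 22.8 in young TRF2 and 232 ± 7.79 in young cells, and gamma sums 8702 ± 44.2 and 8950 ± 139. PCDHGC3 had 2421, 2460.2 and 2500.0 reads with TRF2, all below the 2706 to 2820.4 of the empty vector, at a log2 fold change of -0.17 (SE 0.156, edgeR adjusted p = 0.816). PCDHGC5 had a log2 fold change of -0.75 (SE 0.277, edgeR adjusted p = 0.371).

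In senescent cells the TRF2 virus went with more reads of both beta and gamma genes. At a fold threshold of 0.58 on the log2 scale, 9 of 14 beta and 10 of 22 gamma genes were upregulated and none downregulated (edgeR; DESeq2 called 11 and 10 up and 0 down, and 0 had an unadjusted p below 0.05 downward), against 2.61% of all genes called up and 4.27% called down. Of the genes over the filter in all libraries, 6 of 7 beta genes (median log2 fold change 1.21) and 10 of 21 gamma genes (median 0.65) were upregulated, against a median of -0.02 over all genes. No alpha gene was called by edgeR, with 1 at an unadjusted p below 0.05, and DESeq2 called 1.

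PCDHB15 had 15.6, 19.1 and 19.8 normalised reads in senescent and 99.5, 90.2 and 91.8 in senescent TRF2 cells. The groups did not overlap, and the log2 fold change, the largest of the 14 beta genes here, was 2.36 (SE 0.313, edgeR adjusted p = 0.000329). PCDHB11 rose from 3.59, 3.58 and 3.13 to 11.3, 20.5 and 13.8 (2.11, SE 0.47, edgeR adjusted p = 0.00995), on 9 against 46 reads, the direction its passing the filter allowed. PCDHB16 (1.44, SE 0.194, edgeR adjusted p = 0.000348), PCDHB14 (1.27, SE 0.187, edgeR adjusted p = 0.000652), PCDHB13 (1.21, SE 0.26, edgeR adjusted p = 0.00824), PCDHB10 (1.15, SE 0.27, edgeR adjusted p = 0.0136) and PCDHB5 (0.93, SE 0.274, edgeR adjusted p = 0.0395) followed, each higher in every TRF2 library than in any library of the empty vector. In the gamma cluster, PCDHGB1 had 151, 136 and 65.7 against 297, 279.9 and 310.2 (1.34, SE 0.245, edgeR adjusted p = 0.00299), and PCDHGA1 (0.97, SE 0.192, edgeR adjusted p = 0.00504) and PCDHGA3 (0.86, SE 0.154, edgeR adjusted p = 0.00264) came next. PCDHGB7 had 673, 579 and 356 against 923, 894 and 997, without overlap (0.81, SE 0.157, edgeR adjusted p = 0.00443). PCDHGA4, with 1140.0, 1068 and 621 against 1006, 1095 and 1008.5, overlapped between the groups (0.14, SE 0.161, edgeR adjusted p = 0.602), as did PCDHGC3 (0.08, SE 0.158, edgeR adjusted p = 0.763).

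These calls rest on the spread shared by the 5 conditions and on single libraries. When only the 6 senescent libraries were fitted, 1 of 13 beta and 0 of 22 gamma genes were called, and over all genes 2 were. In that fit 13 of 13 beta and 10 of 22 gamma genes had an unadjusted p below 0.05, and the median log2 fold changes were 1.22 and 0.65, against 1.24 and 0.65 for all tested genes of the clusters in the fit of the 5 conditions. Without replicate 3 of the empty-vector group 6 beta and 4 gamma genes were called, against 1.33% of all genes called up and 2.96% down. The median of the 22 gamma genes then went from 0.65 to 0.37. Without replicate 1 of that group the counts were 11 and 14, against 6.79% of all genes called up and 7.43% down. Leaving out replicate 2 of the TRF2 group gave 4 beta genes, and leaving out its replicate 1 or 3 gave 6 gamma genes. Genes of dividing cells were lower in the TRF2 group, 7 of 8 downregulated, and LMNB1 fell by 0.62 on the log2 scale (SE 0.13, edgeR adjusted p = 0.00733). Whether either bears on the protocadherin genes was not tested.

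The interaction asks whether the senescent-to-young difference itself differs between TRF2 and the empty vector. One member passed an adjusted p of 0.05, against 1.12% of all genes. This was PCDHB15, whose log2 difference was 2.23 (SE 0.481, edgeR adjusted p = 0.0375). It was lost when only the libraries compared were fitted (0.0719). All 14 beta genes had a positive difference, with a median of 1.18, and 7 of them had an unadjusted p below 0.05. In the gamma cluster 11 of 22 had one, and the lowest adjusted p was that of PCDHGB1 (0.051, difference 1.53, SE 0.359). Without replicate 1 of the empty-vector senescent group 5 beta and 11 gamma genes passed, but of all genes 6.1% then passed upward and 6.73% downward. Without its replicate 3, 1 beta and 2 gamma genes passed, against 0.73% of all genes upward and 1.13% downward.

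The make-up of the gamma cluster is given as each gene's share of the reads of the cluster, which does not depend on how the libraries are scaled and was not tested. PCDHGC3 held 30.9% ± 0.381 (SD, n = 3) of gamma reads in young cells, 28.3% ± 0.314 in young TRF2 cells, 17.3% ± 0.663 with siLMNB1, 15.2% ± 1.18 in senescent and 11.5% ± 0.568 in senescent TRF2 cells. No library of these last 3 groups reached the share of any young library with either virus. PCDHGB5 went from 10.3% ± 0.446 to 14.7% ± 0.353 with siLMNB1, 18.3% ± 0.53 in senescent and 17.1% ± 0.211 in senescent TRF2 cells. PCDHGA4 went from 2.78% ± 0.222 to 5.38% ± 0.371, 12.2% ± 0.381 and 9.53% ± 0.426 in the same order. PCDHGA12 held 7.23% ± 0.577 in young cells and 8.33% ± 0.256 with siLMNB1, but 2.03% ± 0.411 in senescent and 1.73% ± 0.0998 in senescent TRF2 cells. In replicate 3 of the senescent cells, which had the low gamma sum, the shares of these 4 genes were 15.1%, 18.2%, 12.5% and 2.29%, against 14%, 17.8%, 11.8% and 2.25% in replicate 1. By level per length PCDHGC3 was 1st in young cells and 2nd in senescent cells, where PCDHGB5 was 1st, and PCDHGA4 moved from 8th to 3rd. Without PCDHGC3 the gamma sum was 6187 ± 99.8 in young cells, 7195 ± 107 with siLMNB1, 6584 ± 2124 in senescent and 9625 ± 197 in senescent TRF2 cells. Within the beta cluster, PCDHB13 held 19.2% ± 6.35 of the reads in young cells, 29.3% ± 7.58 in senescent and 28.8% ± 1.67 in senescent TRF2 cells, and the young (14.8% to 26.5%) and senescent (20.9% to 35.5%) libraries overlapped. PCDHB5 held 14.8% ± 5.45, 7.07% ± 0.836 and 5.6% ± 1.02, and its lowest young library (9%) was above the highest senescent one (7.91%).

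**Figure D4:**
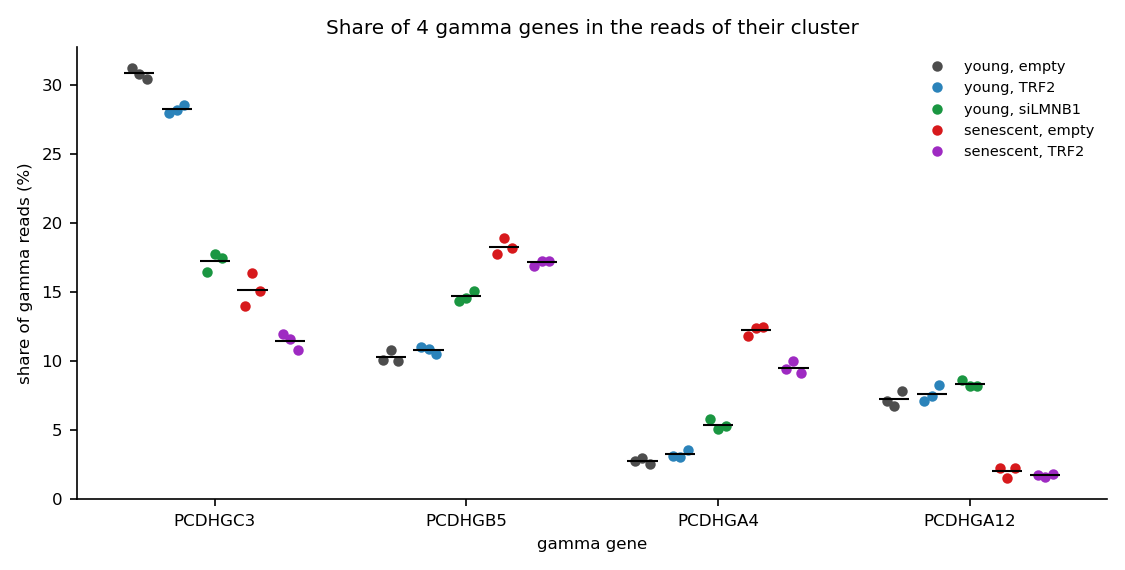
Share (%) of the reads of the gamma cluster (y axis) held by PCDHGC3, PCDHGB5, PCDHGA4 and PCDHGA12 (x axis) in each library, coloured by condition, with bars for the mean of 3. PCDHGC3 holds a mean of 30.9% in young cells, 15.2% in senescent cells and 17.3% with siLMNB1, and PCDHGA12 is below 3% in the senescent libraries.

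The order of the genes along the cluster was set beside the size of the change. Across the 22 gamma genes, Spearman's rho between order from the 5′ end and log2 fold change was -0.25 for senescence with the empty vector, -0.49 with TRF2, -0.62 with siLMNB1 and -0.68 for TRF2 in senescent cells. It was -0.43 for TRF2 in young cells too, where no member was called. Across the 14 beta genes the values were 0.35, 0.45, 0.17, 0.33 and 0.0066 in the same order. These are descriptions across genes that share libraries and sequence, and genes are not independent replicates.

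Other genes of the locus did not move as a block. Of 30 genes that lie between the first and the last member and are no members, 4 could be tested. TAF7, a subunit of the general transcription factor TFIID that lies between the beta and gamma clusters, averaged 3806 ± 81.6 in young and 4154 ± 290 in senescent cells, and its log2 fold changes were 0.13 (SE 0.0719, edgeR adjusted p = 0.135) for senescence and -0.06 (SE 0.0719, edgeR adjusted p = 0.551) with siLMNB1. Of the pseudogenes, PCDHB18P was upregulated in senescent TRF2 cells (2.33) and PCDHGB8P, which averaged 11.7 ± 6.65 reads in young cells, was downregulated in senescent cells (-1.86), in senescent TRF2 cells (-1.98) and with siLMNB1 (-2.04). Of the 5 protein-coding genes on either side of the locus, 9 could be tested, and the calls were FCHSD1 (1.13, up in senescent cells with the empty vector) and DIAPH1 (-0.85, down with siLMNB1).

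Among 23 factors known for looping or silencing of the clusters, 1 was upregulated and 5 were downregulated in senescent cells with the empty vector, 1 and 1 in senescent TRF2 cells, 3 and 0 with siLMNB1, and 2 and 0 with TRF2 in senescent cells. Median log2 fold changes were -0.71, -0.62, -0.01 and 0.18, against 0.02, -0.02, 0.04 and -0.02 over all genes. Of all genes tested, 28.4% were called in either direction in senescent cells with the empty vector, 24% in senescent TRF2 cells and 18.2% with siLMNB1. With TRF2 in senescent cells, 2.61% were called up and 4.27% down. In the first 3 comparisons the factors were not called more often than all genes, so these counts are not a result about the list. In senescent cells the downregulated factors were the cohesin subunits RAD21 (-1.04, SE 0.0918) and SMC3 (-1.10, SE 0.107), SMCHD1 (-1.23, SE 0.193), a protein that keeps these clusters silent in other cells, and the DNA demethylases TET1 (-2.34, SE 0.232) and TET2 (-1.20, SE 0.189), with edgeR adjusted p values between 7.2e-08 and 4.2e-05. The upregulated one was WIZ (1.20, SE 0.0765, edgeR adjusted p = 1.5e-09), a zinc finger protein of the G9a complex. CTCF itself averaged 1696 ± 35.5 in young and 1079 ± 140 in senescent cells (-0.65, SE 0.0935, edgeR adjusted p = 1.5e-05) and stayed under the fold threshold. With siLMNB1 the upregulated factors were TET3 (1.11), LRIF1 (0.78), a partner of SMCHD1, and the DNA methyltransferase DNMT3A (0.63), and SMCHD1 had a log2 fold change of -0.51 (SE 0.19, edgeR adjusted p = 0.051).

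The non-clustered protocadherins moved differently from one another. Of 12, 6 were tested. In senescent cells with the empty vector PCDH1 was upregulated (1.85, SE 0.454, edgeR adjusted p = 0.00209), and PCDH10 (-6.62), PCDH7 (-2.49) and PCDH18 (-1.14) were downregulated. PCDH10 averaged 463 ± 58.1 reads in young, 772 ± 89.0 with siLMNB1 and 4.63 ± 2.2 in senescent cells. Of 7 partners of the protocadherin proteins, the kinase gene PTK2B was upregulated with siLMNB1 (1.71, SE 0.177, edgeR adjusted p = 2.8e-06) and AXIN1 in senescent cells (1.25, SE 0.13, edgeR adjusted p = 4.5e-07).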

How the data were processed

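RNA-seq libraries of MRC-5 cells (15, in 5 conditions of 3) were compared. Per the labels, the authors used Trimmomatic and STAR with GRCh38, and they deposited raw counts per gene; the annotation release and strand setting are not given in the sources used here. Genes were named with GENCODE 44. Counts were tested with edgeR 4.0.16 (limma 3.58.1, R 4.3.3): TMM, filterByExpr, glmQLFit (robust) on one model of the 5 conditions, glmQLFTest and Benjamini-Hochberg over 15799 genes. The thresholds for senescence and siLMNB1 follow the study; 0.58 was also taken for TRF2, and the interaction had no fold threshold. Alternatives were DESeq2 1.42.0 (size factors and Wald test), no filter, no fold threshold, only the libraries compared, a replicate block, GC and length offsets (loess span 0.3, prior count 1) and each library left out. The offsets used GC content and length of all exons of a gene, also of the uncounted constant exons of alpha and gamma genes. Levels are CPM (TMM) per kb of exon shared with no other gene of the same strand. The fit was tested on simulated data, where 200 changed genes were recovered. These were well-counted genes with a large change and little spread between libraries. The simulation therefore does not cover members with few reads or the wide spread of the senescent libraries. Tables and figures were made with Python 3.11.15 (pandas 2.3.3, numpy 2.4.6, scipy 1.17.1).

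Members and lists were chosen with earlier results of these data known. Given in full were the 4 members with the highest mean level in each cluster, the 5 C-type genes, up to 3 called members per comparison, cluster and direction with the largest log2 fold change, and any member with an interaction call. Other members were named where counts turned on them, after their values were seen. Marker lists covered fibroblast, neuron, epithelium, endothelium, leukocyte and dividing cells.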

Additional observations from a re-analysis of the deposited data

Results flagged for a closer look

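PCDHB15 stood out because its change with senescence differed between cells with TRF2 and cells with the empty vector, with an interaction of 2.23 on the log2 scale (SE 0.481, edgeR adjusted p = 0.0375). It had 22.5, 11.3 and 12.0 normalised reads in young, 21.9, 10.5 and 17.1 in young TRF2, 15.6, 19.1 and 19.8 in senescent and 99.5, 90.2 and 91.8 in senescent TRF2 cells. All 3 senescent TRF2 libraries lay above the other 12. The groups compared had 3 libraries each.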

How the results depend on the processing

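No called fold change of a named member turned its sign under an alternative, and neither did any that an alternative called. Of those not called, PCDHB13 with TRF2 in young cells (log2 fold change 0.0137) became -0.00456 with DESeq2's size factors, -0.0145 with its Wald test and -0.00639 with the replicate block, and the interaction of PCDHGA4 (-0.0456) became 0.0289 with the offsets and 0.0488 with offsets and replicate block. Of the gamma genes in senescence with TRF2, 16 were positive and 6 negative, and 12 and 10 with the offsets, which took in the constant exons as well. Without the filter on low counts, 4 alpha genes were called in senescence with the empty vector, 5 in senescence with TRF2 and 1 with siLMNB1, and the interaction passed for 3 beta and 6 gamma genes. Of all genes, 1.03% then passed the interaction upward and 1.98% downward. DESeq2's Wald test gave 1 alpha gene for TRF2 in senescent cells and 3 beta and 3 gamma genes for the interaction, which 0.949% of all genes then passed upward and 2.53% downward. With siLMNB1 the alpha count of 2 became 1 with DESeq2's size factors, with GC and length offsets or with only the libraries compared. Fitting only the libraries compared gave 1 beta and 0 gamma genes for TRF2 in senescent cells and 0 beta genes for the interaction, and the offsets gave 1 gamma gene there, with or without the replicate block. Deviations of same-numbered libraries of different groups had correlations from -0.09 to 0.2, and those of other pairs from -0.133 to 0.0823. The highest was that of siLMNB1 replicate 3 with senescent empty replicate 3. The labels do not say whether the numbers pair libraries. With the replicate block, alone or with the offsets, 0 alpha genes were called with siLMNB1, and no other count moved by over 1.5 times with the block alone. Without a fold threshold, 14 gamma genes were called in senescence with the empty vector and 16 with TRF2. Restricting to members that share no exonic base with genes outside the clusters, chosen after seeing the data, left 1 alpha and 1 beta gene called with the empty vector and 2 beta genes with TRF2, because only 2 beta genes could then be tested.

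Leaving out 1 library at a time gave the following ranges of calls for alpha, beta and gamma genes. They were 1 to 2, 6 to 8 and 6 for senescence with the empty vector, 3, 11 to 12 and 7 to 9 with TRF2, 0 to 2, 5 to 8 and 3 with siLMNB1, 0, 4 to 11 and 4 to 14 for TRF2 in senescent cells, and 0, 0 to 5 and 0 to 11 for the interaction. The highest counts in the last 2 comparisons came without senescent empty replicate 1, where more of all genes were called too. The alpha calls with siLMNB1 were 0 without any 1 of the control libraries or without siLMNB1 replicate 3, and 1 without siLMNB1 replicate 2. PCDHB15 kept its interaction only without senescent empty replicate 1 or 3, and its adjusted p ran from 0.0608 to 0.135 without the other 10 libraries. Uncalled values that turned their sign or reached 0 when a library was left out ranged from -0.343 to 0.0778 for PCDHGC4 in senescence with TRF2 and from -1.24 to 0.491 with siLMNB1. With TRF2 in young cells the ranges were -0.376 to 0.236 for PCDHA7, 0 to 3.08 for PCDHA10, -0.463 to 0.0189 for PCDHB5, -0.177 to 0.333 for PCDHB13, -0.00763 to 0.0451 for PCDHGB5 and -0.182 to 1.25 for PCDHGC4. With TRF2 in senescent cells they were -0.105 to 0.483 for PCDHA7, -0.0879 to 0.303 for PCDHGA4, -0.153 to 0.242 for PCDHGC3 and -0.099 to 0.322 for PCDHGC5, and for the interaction -0.126 to 0.499 for PCDHA7, -1.81 to 1.27 for PCDHA10 and -0.253 to 0.12 for PCDHGA4. Of the fold changes of named members, 662 kept direction and side of the threshold when a library was left out, 75 lost and 9 gained the call and 28 turned their sign or reached 0, and under the other alternatives these numbers were 763, 27, 10 and 5. Depth limits the alpha cluster most, and 3 libraries per group limit the precision of each comparison.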

Other observations

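The epithelial marker genes (5) summed to between 1228 and 1309 normalised reads in young and between 1398 and 2161 in senescent cells. KRT18 and KRT8 made up most of the sum, with means of 876 and 289 in young cells. CDH1 was at 0 in at least 1 library of every condition. Of the neuron genes tested (5 of 10), 1 was upregulated in senescent cells with the empty vector, 1 with siLMNB1 and 1 with TRF2 in senescent cells, and of the fibroblast genes (10), 1 was upregulated and 2 downregulated in senescent cells with the empty vector, against 3 and 2 with siLMNB1.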
